A study of Mus musculus with 8 samples.

Results

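The 39 genes described here encode transcription factors that set the macrophage lineage or the state of a macrophage, and they were measured in macrophages sorted from mouse lung. They were chosen by name from their known roles, leaving out the Maf, Klf, AP-1 and Nr4a families, and all 39 were among the 22597 genes of the table and among the 12750 genes with enough counts to be tested. The lowest count of any of them in a library was 25, for Id1. The study placed bone marrow of either genotype in irradiated recipients and compared the interstitial macrophages, the macrophages of the lung's connective tissue as opposed to its alveoli, that had formed from it. Recipients were female C57BL/6 CD45.1/CD45.2 mice carrying the IMDTR alleles (named Cx3cr1-DTR in part of the labels), which make interstitial macrophages sensitive to diphtheria toxin. Their age is 18 weeks in the protocol text and 12 to 16 weeks in the age label. They were lethally irradiated with the thorax protected, and the toxin (50 ng) followed 1 month after the transplant, with sorting 10 days later. Marrow came from CD45.2 Tgfbr2 fl/fl mice (WT, 4 libraries) or from CD45.2 Lyz2Cre Tgfbr2 fl/fl mice (KO, 4 libraries), so the floxed gene of the type II TGF-β receptor was present in both groups and Cre only in the KO donors. Effects of Cre and of receptor loss cannot be told apart. Lyz2Cre is active in myeloid cells at large, and the labels do not say whether the donor marker entered the sort. They also leave unsaid whether a library stands for a separate mouse, so p-values rest on a spread between libraries that may be technical.

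A macrophage keeps its identity through a small number of factors that bind its enhancers together. Spi1 (PU.1) opens chromatin with partners of the C/EBP, Runx and Irf families, and repressors such as Zeb2, Bhlhe40 and Bhlhe41 keep genes of other states off. Factors that answer to the surroundings are laid over this base: Id proteins, which lack a DNA-binding domain and hold E proteins off DNA, are classical targets of BMP and TGF-β signals, Spic and Bach1 answer to heme, and Tfeb and Tfe3 run the lysosomal programme.

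The smallest library held 15597300 gene counts (WT 1) and the largest 37654100 (WT 4). The total Tgfbr2 level was 474 to 548 CPM (counts relative to the library's total, TMM-scaled) in WT and 424 to 576 CPM in KO, so the gene's total count did not separate the genotypes, and a count over the whole gene does not read the floxed exon alone. Lyz2, the gene that holds Cre, was at 7285 to 13193 CPM in WT and 3440 to 5611 CPM in KO. WT 1, WT 2 and KO 1 carried more lung transcripts than the other 5 libraries, and these 3 are called lung-rich below. That division comes from the data and not from the labels. The 17 endothelial markers summed to 2968 to 5858 CPM in them against 301 to 339 CPM, and the 15 epithelial markers to 3492 to 6302 against 161 to 253 CPM, highest in KO 1 in both cases. The 12 interstitial macrophage markers, none of them at 0, summed to 10494 to 16808 CPM in the lung-rich libraries and to 23181 to 25406 CPM in the others. In bulk RNA, fewer macrophages and less of a transcript per macrophage cannot be told apart.

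The level of each factor per kb of exon placed Cebpb, Ets2, Cebpa, Spi1 and Id2 at the top in WT and Tfec, Runx2 and Bhlhe41 at the bottom. Cebpb, a C/EBP factor of activated macrophages, averaged 128 CPM per kb in WT, and Bhlhe41 averaged 0.933 CPM per kb. The WT ranges of Cebpb (85.9 to 169.9), Ets2 (101.7 to 138) and Cebpa (57.1 to 131) overlapped, so the order at the top is within the spread. In KO, Cebpa was in place 9 at 52.8 CPM per kb, against place 3 at 100.1 in WT. Etv3 moved the other way in this order, from place 12 at 37.7 to place 6 at 72.7 CPM per kb, and Bach1 from place 7 at 71.3 to place 3 at 111 CPM per kb. These moves rest on KO 2 to 4: in KO 1, Etv3 (349 CPM) lay within the WT range of 342 to 407 CPM and Bach1 (327 CPM) below that of 344 to 523 CPM.

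**Figure D1:**
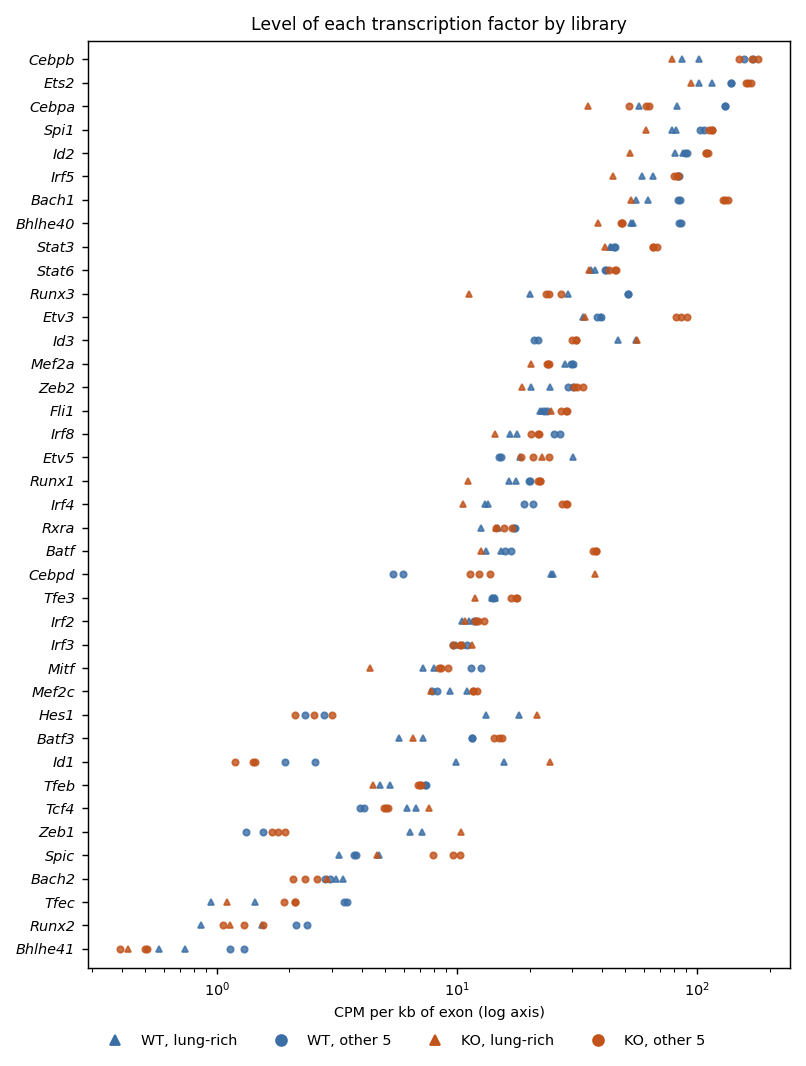
Level of the 39 transcription factors in each library, in CPM per kb of exon on a log axis, ordered by their WT mean; blue marks WT, orange KO, triangles the lung-rich libraries and circles the other 5. The factors span from 0.933 (Bhlhe41) to 128 (Cebpb) CPM per kb in WT, and the triangles of Zeb1, Hes1 and Id1 lie far to the right of the circles.

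Promoter sequence is shown for 4 factors whose levels the results turn on, chosen after the values were seen: Cebpa and Bhlhe41 (lower in KO), Mef2a (lower in KO with no overlap between genotypes) and Spic (higher in KO). The bases are RefSeq's (GRCm38.p6), on the strand of the gene, 5′ to 3′, and end just before the gene's RefSeq start or, for Bhlhe41, before the first annotated exon base. The windows are chr7:35119043-35119292 (Cebpa, plus strand), chr6:145865559-145865670 (Bhlhe41, minus strand), chr7:67372859-67373108 (Mef2a, minus strand) and chr10:88683024-88683273 (Spic, minus strand). Capitals mark matches to the motifs named after the sequences.
Cebpa: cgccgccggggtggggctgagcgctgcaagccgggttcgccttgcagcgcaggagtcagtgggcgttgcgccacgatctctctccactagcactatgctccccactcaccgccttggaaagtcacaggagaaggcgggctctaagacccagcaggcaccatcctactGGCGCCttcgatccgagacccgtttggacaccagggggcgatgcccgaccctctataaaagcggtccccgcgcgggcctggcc
Bhlhe41: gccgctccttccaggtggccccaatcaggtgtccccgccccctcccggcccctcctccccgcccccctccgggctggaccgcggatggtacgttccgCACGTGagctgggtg
Mef2a: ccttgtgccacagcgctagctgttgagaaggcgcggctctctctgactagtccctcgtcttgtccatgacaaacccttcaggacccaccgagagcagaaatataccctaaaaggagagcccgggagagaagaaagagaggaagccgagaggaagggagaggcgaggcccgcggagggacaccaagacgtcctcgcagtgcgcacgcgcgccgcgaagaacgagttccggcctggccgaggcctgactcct
Spic: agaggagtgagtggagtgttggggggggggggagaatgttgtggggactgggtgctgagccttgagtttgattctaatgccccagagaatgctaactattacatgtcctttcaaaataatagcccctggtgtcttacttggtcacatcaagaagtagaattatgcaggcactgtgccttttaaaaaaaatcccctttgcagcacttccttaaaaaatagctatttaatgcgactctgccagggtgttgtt
The 3 motifs searched, on both strands, were the Smad box CAGAC, the GC-rich Smad element GGCGCC and the E-box CACGTG, to which Bhlhe40, Bhlhe41 and the MiT/TFE factors bind. No motif contains another, but matches could share end letters. In the 250 bases before the start, the Cebpa promoter held a GGCGCC and no CAGAC, the Bhlhe41 promoter an E-box and, within the annotated exon that is left out above, a Smad box, and the Mef2a and Spic promoters none of the 3. The 31 members with a window had 46 windows between them, of which 32.6% held the Smad box, 10.9% the GC-rich element and 8.7% the E-box. Among all 32851 windows of this length the shares were 42.2%, 9.6% and 6.0%. A match is a run of letters and not a measured binding site.

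With genotype as the only term, none of the 39 factors passed an adjusted p of 0.05 in the edgeR quasi-likelihood test, where 0.298% of all genes tested were called. DESeq2 called 3 factors (Bhlhe41, Spic and Mef2a) among 463 of all genes. In the edgeR test, 10 factors had an unadjusted p under 0.05, as had 1328 of the 12750 genes tested. With the library set as a second term, 14 factors passed, 6 higher and 8 lower in KO, against 16.5% of all genes (8.59% higher and 7.89% lower). Cebpd, Fli1, Zeb1, Id3, Tcf4 and Spic rose, and Cebpa, Runx3, Irf8, Bhlhe40, Bhlhe41, Mitf, Tfec and Mef2a fell. Cebpa, Cebpd, Runx3, Irf8, Bhlhe40, Bhlhe41, Mitf and Mef2a passed in all 13 alternatives to this fit, and the other 6 lost the call in at least 1. Without WT 3 the count of 14 was 8, and without KO 1 it was 28. The median log2 difference over the 39 was 0.04, and over all genes tested 0.03. Among KO 2 to 4 and WT 3 and 4 alone, 33 of the 39 passed, 21 higher and 12 lower, where 38.5% of all genes were called (19.7% higher and 18.7% lower). Within both library sets, 15 of the 39 had every KO library on the same side of every WT library. This pattern was found in 28.4% of all genes. The 15 include 12 of the 14, a count that is partly built in, since the 14 were called on these same libraries. The genotypes did not overlap at all over the 8 libraries for 4 factors (Fli1, Bhlhe40, Bhlhe41 and Mef2a), where 6.90% of all genes were apart.

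**Figure D2:**
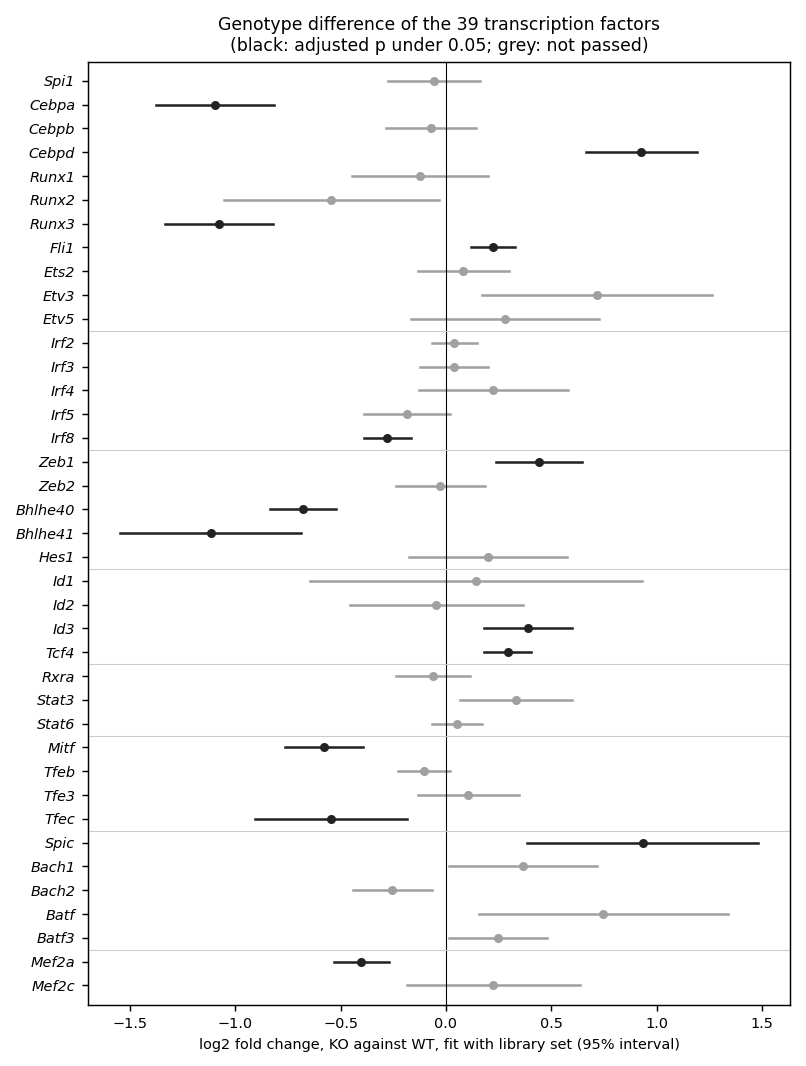
Log2 difference of KO against WT for each of the 39 factors in the fit with library set, ordered by role, with 95% intervals; black marks an adjusted p under 0.05. The lowest value is that of Bhlhe41 (-1.12) and the highest are those of Cebpd and Spic (0.93 each).

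Among the 11 lineage-determining factors, Cebpa and Runx3 fell and Cebpd and Fli1 rose, while Spi1 itself did not pass. Cebpa, the C/EBP factor that starts the myeloid programme (chromosome 7, 35119293 to 35121928, plus strand), was at 150.5, 217, 343 and 345 CPM in WT (libraries 1 to 4 in order, here and below) and 92.5, 136.5, 166 and 161.5 CPM in KO. Each KO library was below each WT library of its own library set, and over all 8 libraries the ranges met between WT 1 and KO 3 and 4. With library set the log2 difference was -1.10 ± 0.12 (SE), with a 95% interval from -1.37 to -0.82 and an edgeR adjusted p of 0.00135, and it was -0.92 ± 0.31 (adjusted p = 0.328) with genotype only.

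Runx3, a Runx factor of mononuclear phagocytes and T cells, was at 100.3, 144.0, 258 and 258 CPM in WT and 55.9, 120.4, 136 and 117 CPM in KO. It was lower in KO within each set, and WT 1 was below KO 2 to 4. It fell by 1.08 on the log2 scale (SE 0.11, edgeR adjusted p = 9.98e-04), and the difference was -1.20 between KO 1 and the lung-rich WT libraries and -1.05 among the other 5. Runx1, its relative that is needed for blood cell formation, did not pass with library set (-0.12, adjusted p = 0.593).

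Cebpd, a C/EBP factor of the acute response, was at 92.0, 93.7, 22.3 and 20.3 CPM in WT and at 141, 42.3, 46.1 and 51.1 CPM in KO. KO was above WT in each set, and each lung-rich library was above each of the other 5. The difference was 0.93 ± 0.11 (edgeR adjusted p = 0.00211), 1.13 in KO 2 to 4 against WT 3 and 4 and 0.53 in KO 1 against WT 1 and 2. Fli1, an Ets factor of blood and vessel cells, was at 77.1, 78.3, 82.3 and 80.2 CPM in WT and 85.7, 99.9, 94.4 and 98.9 CPM in KO. Every KO library was above every WT library, and the size was small, at 0.22 ± 0.05 with library set (edgeR adjusted p = 0.0142). The call of Fli1 ended without any 1 of WT 3, WT 4, KO 2, KO 3 or KO 4 (highest adjusted p = 0.1496).

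Spi1, the pioneer factor of the myeloid lineage, was at 211, 219.7, 276 and 287 CPM in WT and 165, 309, 301 and 309 CPM in KO. KO 1 was the lowest and KO 2 to 4 were the highest of the 8 libraries. The difference was -0.06 ± 0.10 with library set (95% interval -0.28 to 0.16, edgeR adjusted p = 0.733). Cebpb was at 129, 153, 256 and 234 CPM in WT and 118, 224, 255 and 270.3 CPM in KO, with overlap there and a difference of -0.07 (95% interval -0.28 to 0.14).

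Etv3, Ets2, Runx1 and Etv5 were higher in KO 2 to 4 than in WT 3 and 4, but not in KO 1 against the lung-rich WT libraries. Etv3, an Ets repressor that is induced in macrophages, was at 342 to 407 CPM in WT, at 349 CPM in KO 1 and at 836.5 to 928 CPM in KO 2 to 4. The KO 2 to 4 libraries stood apart from all others, with a log2 difference of 1.14 (edgeR adjusted p = 2.53e-12) against WT 3 and 4, where KO 1 differed by -0.17 from WT 1 and 2. Ets2, Runx1 and Etv5 differed by 0.24, 0.14 and 0.49 among the other 5 and by -0.27, -0.68 and -0.16 in the lung-rich set. Runx2, a factor of bone cells that was low here (7.57 to 20.8 CPM), fell by 0.79 among the other 5.

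Of the 5 interferon regulatory factors, Irf8 alone passed with library set. Irf8, which directs monocyte and dendritic cell fate, was at 126, 117, 189 and 178 CPM in WT and 101, 154, 143 and 153 CPM in KO. KO was lower within each set, while KO 2 to 4 were above WT 1 and WT 2. It fell by 0.28 (SE 0.05, edgeR adjusted p = 0.00801). Irf5, which drives inflammatory genes, was also lower in KO within each set, by little among the other 5 (-0.03), and did not pass (-0.19, adjusted p = 0.199). Irf4, tied to alternative activation and to dendritic cells, was at 63.9 to 101 CPM in WT, 51.9 CPM in KO 1 and 134 to 140.3 CPM in KO 2 to 4. Irf2 and Irf3, which act in interferon induction, lay between 77.1 and 95.2 CPM and between 32.9 and 39.6 CPM over the 8 libraries, and their intervals with library set were -0.07 to 0.15 and -0.12 to 0.20.

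Of the repressors tied to macrophage identity, a related pair fell with no overlap between the genotypes. Bhlhe40 (chromosome 6, 108660629 to 108666925, plus strand) and Bhlhe41 (chromosome 6, 145858243 to 145865558, minus strand) are E-box repressors that act together in alveolar macrophages. Bhlhe40 was at 249.9, 253, 395 and 401 CPM in WT and 182, 229, 227 and 229 CPM in KO. Every KO library was below every WT library, and KO 1 was the lowest. It fell by 0.68 with library set (SE 0.07, edgeR adjusted p = 8.32e-04), and by 0.80 among the other 5, and the difference of KO 1 from WT 1 and 2 was -0.53.

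Bhlhe41 was at 3.84, 4.92, 7.59 and 8.72 CPM in WT and at 2.84, 3.42, 3.36 and 2.64 CPM in KO. The genotypes again did not overlap, with a difference of -1.12 ± 0.19 with library set (edgeR adjusted p = 0.0068) and -1.03 ± 0.28 with genotype only (adjusted p = 0.210). The sum of the 11 alveolar macrophage markers was highest in the libraries where both genes were highest. It was 486 and 498 CPM in WT 3 and WT 4 against 116 to 187 CPM in the other 6 libraries. Chil3 made up most of this, at 348 and 347 CPM against 15.8 to 30.04 CPM, so the sum does not describe each marker. Of the 11, 7 had enough counts to be tested, and 1 was higher in each lung-rich library than in each other one. Siglecf was at 1.02 to 5.15 CPM, and none of the 11 was at 0 in all libraries. WT 3 and WT 4 were also the 2 highest libraries for 11 of the 39 factors (Cebpa, Runx2, Runx3, Irf5, Irf8, Bhlhe40, Bhlhe41, Rxra, Mitf, Tfeb and Tfec), among them 7 of the 8 that fell with library set. The share of all genes with this pattern was not computed, so 11 of 39 cannot be read as particular to these factors. The 8 were called lower in KO on these same libraries, so 7 of 8 is partly built in. A factor that is lower in KO and lower in the lung-rich libraries tends to this pattern. For all 11 the log2 difference of the lung-rich set from the other was negative, from -0.24 (Rxra) to -1.25 (Tfec). Of them, Irf5, Irf8, Mitf, Tfeb and Tfec were lower in each lung-rich library than in each other one, and the rest overlapped. The part of alveolar macrophages in these results was not tested.

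Zeb2, which guards the identity of tissue macrophages, was at 484, 406, 603 and 578 CPM in WT and 371, 666, 608 and 628 CPM in KO. KO was higher than WT among the other 5 and lower in the lung-rich set, so the difference with library set was -0.03 (95% interval -0.24 to 0.19, edgeR adjusted p = 0.878). Its relative Zeb1, best known from mesenchymal cells, was at 73.2, 65.3, 13.5 and 16.0 CPM in WT and 107, 18.4, 17.4 and 19.6 CPM in KO. KO was above WT within each set, by 0.44 ± 0.09 with library set (edgeR adjusted p = 0.0134, and 0.0608 without WT 3), beside a log2 difference of 2.36 between the library sets. With genotype only the direction turned, at -0.05 ± 0.85. Hes1, a Notch target, was at 26.9 to 43.6 CPM in the lung-rich libraries and at 4.29 to 6.12 CPM in the others, and did not pass between genotypes (0.20, adjusted p = 0.454).

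**Figure D3:**
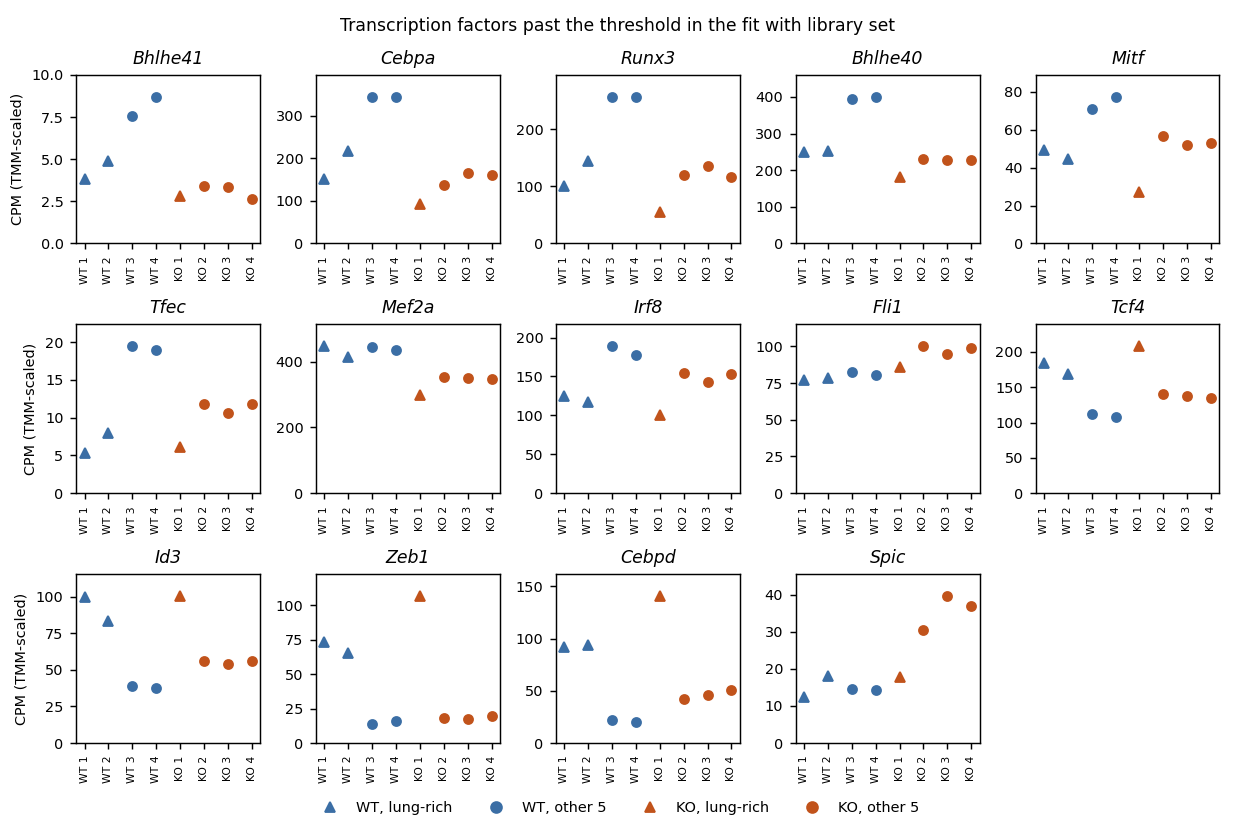
CPM per library for the 14 factors that passed in the fit with library set, ordered from the lowest to the highest log2 difference; blue marks WT, orange KO, triangles the lung-rich libraries and circles the other 5. In Bhlhe41, Bhlhe40, Mef2a and Fli1 all orange points lie on one side of all blue points, while in Zeb1, Id3 and Cebpd the triangles of both colours lie above the circles.

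The 3 Id genes went different ways. Id3 was at 99.5, 83.5, 38.8 and 37.5 CPM in WT and 100.4, 56.0, 53.9 and 55.9 CPM in KO. It was higher in KO within each set, by very little in the lung-rich one (0.07), and rose by 0.39 ± 0.09 with library set (edgeR adjusted p = 0.0238). Without any 1 of the other 5 libraries it did not pass (highest adjusted p = 0.1502). Id1 was at 18.2, 11.5, 2.97 and 2.22 CPM in WT and 28.1, 1.67, 1.63 and 1.37 CPM in KO. KO 1 was the highest library of all and KO 2 to 4 were the lowest, with a log2 difference of -0.71 among the other 5 (edgeR adjusted p = 0.0380) and 0.87 in the lung-rich set. Id2, which dendritic and innate lymphoid cells also need, was at 196, 213, 220.1 and 217 CPM in WT and 127, 266, 269.9 and 264 CPM in KO. It showed the reverse of Id1, with KO 1 lowest and KO 2 to 4 highest, by 0.29 among the other 5 (adjusted p = 7.13e-07) against -0.75. Tcf4, an E protein that Id proteins hold off DNA, was at 184, 168, 112 and 108 CPM in WT and 208, 141, 138 and 135 CPM in KO. KO was above WT in each set, by 0.29 ± 0.05 (edgeR adjusted p = 0.00632, 0.0611 without WT 3 and 0.0691 without WT 4). The other E proteins, Tcf3 and Tcf12, differed by 0.16 and 0.15 without passing (adjusted p = 0.0724 and 0.0573).

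Id1, Id3, Tcf4, Zeb1, Hes1 and Cebpd were higher in each lung-rich library than in each other one, a pattern of 28.1% of all genes, and 18 of the 39 were lower in each, a pattern of 23.1%. The 17 endothelial markers were all higher in the lung-rich libraries, and their sum was highest in KO 1. Id1, Hes1, Zeb1, Tcf4 and Cebpd were also highest in KO 1, as was Id3 by little (100.4 against 99.5 CPM in WT 1). The part of endothelial and other lung cells in these results was not tested.

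**Figure D4:**
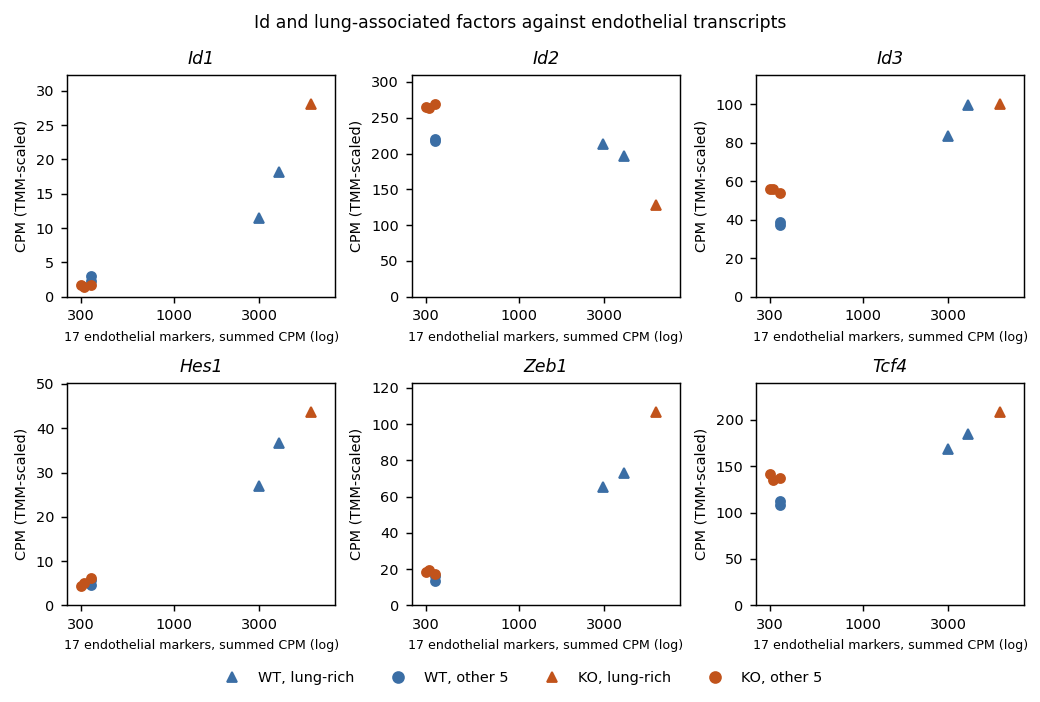
CPM of Id1, Id2, Id3, Hes1, Zeb1 and Tcf4 in each library against the summed CPM of 17 endothelial markers on a log axis; blue marks WT, orange KO, triangles the lung-rich libraries and circles the other 5. The triangles lie at 2968 to 5858 CPM of endothelial markers, where all plotted genes but Id2 are higher than in the circles.

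Of the 3 nuclear receptor and Stat factors none passed with library set. Stat3, the main transducer of interleukin 10 and interleukin 6, was at 411 to 434 CPM in WT, 392 CPM in KO 1 and 622 to 646 CPM in KO 2 to 4. KO 2 to 4 stood above every other library, by 0.55 among the other 5 (edgeR adjusted p = 2.39e-11). Stat6, the transducer of interleukin 4, and Rxra, the partner of many nuclear receptors, differed by 0.11 and -0.15 there.

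The MiT/TFE factors, which bind the E-boxes of lysosomal genes, held 2 that fell. Mitf was at 49.4, 44.5, 70.8 and 77.6 CPM in WT and 26.9, 56.7, 52.0 and 53.1 CPM in KO. KO was lower within each set, and KO 2 to 4 were above WT 1 and WT 2. It fell by 0.58 (SE 0.08, edgeR adjusted p = 0.00311). Tfec, the member most restricted to macrophages, was at 5.26, 8.04, 19.4 and 18.9 CPM in WT and 6.12, 11.8, 10.7 and 11.8 CPM in KO. Its fall of 0.55 (SE 0.16, edgeR adjusted p = 0.0487) came from the other 5 libraries, since KO 1 lay between WT 1 and WT 2, and was lost without WT 2 or without any 1 of the other 5 libraries (highest adjusted p = 0.148). Tfeb was at 29.8, 26.9, 41.4 and 41.9 CPM in WT and 25.3, 40.2, 38.9 and 39.8 CPM in KO. It lay slightly lower in KO within each set (-0.10 ± 0.05, edgeR adjusted p = 0.229). Tfe3 was at 129 to 133 CPM in WT, 110.0 CPM in KO 1 and 154 to 164 CPM in KO 2 to 4. Of 10 tested genes that Tfeb and Tfe3 activate, Fnip2, a partner of folliculin, passed with library set and was lower (-0.47, adjusted p = 0.00251).

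Spic, which with heme-released Bach1 targets marks iron-recycling macrophages, was at 12.3, 18.05, 14.5 and 14.3 CPM in WT and 17.8, 30.4, 39.6 and 36.8 CPM in KO. KO 2 to 4 were above all WT libraries, and KO 1 lay between WT 2 and WT 1. It rose by 0.93 ± 0.24 with library set (edgeR adjusted p = 0.0339), by 1.31 in KO 2 to 4 against WT 3 and 4, and differed by 0.16 in KO 1 against WT 1 and 2. The call was lost without WT 1 or without any 1 of the other 5 libraries (highest adjusted p = 0.174). Bach1, the repressor of heme-responsive genes, was at 344 to 523 CPM in WT, 327 CPM in KO 1 and 790.3 to 829 CPM in KO 2 to 4.

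Of 8 tested Spic and Bach1 targets, 3 rose and 1 fell with library set, where 8.59% of all genes were higher and 7.89% lower. Slc40a1, the iron exporter ferroportin, was at 3.67, 6.06, 1.59 and 2.76 CPM in WT and 12.2, 8.96, 16.7 and 13.3 CPM in KO. Every KO library was above every WT library, by 2.05 (edgeR adjusted p = 0.00867, and 0.0534 without WT 4). Hmox1, heme oxygenase 1, was at 114 to 137 CPM in WT, 139 CPM in KO 1 and 319 to 383 CPM in KO 2 to 4, by 1.06 (adjusted p = 0.0328), and Vcam1, an adhesion molecule, rose by 0.51 (adjusted p = 0.0321). Hmox1 and Vcam1 did not pass without any 1 of the other 5 libraries, nor Vcam1 without KO 1 (highest adjusted p = 0.178 and 0.179). Fth1, ferritin heavy chain, fell by 0.66 (adjusted p = 0.00336), a value that is uncertain because near-identical copies can share its reads.

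Batf, an AP-1 partner of Irf4, was at 18.6 to 23.5 CPM in WT, 17.7 CPM in KO 1 and 51.5 to 53.4 CPM in KO 2 to 4. No other member changed more between the sets in a negative sense: the difference was 1.21 among the other 5 and -0.25 in the lung-rich set. Batf3, needed by cross-presenting dendritic cells, differed by 0.37 and -0.06, and Bach2, a repressor of lymphoid cells, by -0.30 and -0.24. The 8 dendritic cell markers summed to 50.4 to 89.0 CPM in WT and 89.5 to 102 CPM in KO. Among the other 5 they were at 50.4 and 50.8 CPM in WT and at 89.5 to 92.0 CPM in KO. Cd209a made up much of this difference, at 4.62 and 5.57 against 29.6 to 31.7 CPM, so the sum does not describe each marker. The part of dendritic cells in the values of Batf, Batf3, Irf4 and Id2 was not tested.

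Mef2a (chromosome 7, 67231163 to 67372858, minus strand), a factor of muscle and of macrophage enhancers, was at 446, 414.5, 446 and 437 CPM in WT and 299, 353, 350.1 and 348 CPM in KO. Every KO library was below every WT library, with a fall of 0.40 (SE 0.06, edgeR adjusted p = 0.00341) with library set and a difference of -0.37 ± 0.08 (adjusted p = 0.157) with genotype only. Mef2c, its relative that is linked to microglia, was at 123 to 173 CPM in WT, 122 CPM in KO 1 and 182 to 189 CPM in KO 2 to 4. Mef2a shares 302 of its 14681 exon bases with Lysmd4 on the opposite strand. Cebpd (562 of 3746, with Spidr), Irf5 (411 of 2905, with Tnpo3) and Cebpb (312 of 1504, with Tmem189) share more.

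The difference between the genotypes changed with the library set for 17 of the 39 factors (edgeR interaction test), where 18.9% of all genes passed. In 15 of the 17 the difference was lower in the lung-rich set, and in Bhlhe40 and Id1 it was higher, where among all genes 1284 were lower and 1127 higher. The largest changes were -1.39 for Batf, -1.24 for Etv3, -1.09 for Spic and 1.63 for Id1. Only 1 KO library, KO 1, is lung-rich, so the test assumes that it varies as the other groups do, and library and set cannot be told apart in these values. Of the 21 factors called higher among the other 5 libraries, 6 (28.6%) had a positive difference in KO 1 against WT 1 and 2, against 51.8% of all genes called higher there. Of the 12 called lower, 10 (83.3%) had a negative one, against 72.2% of all genes. Over all 39 factors, whatever their call, 29 had a negative difference in KO 1 against WT 1 and 2 and 10 a positive one. The 83.3% alone therefore does not show that the falls recur in KO 1.

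**Figure D5:**
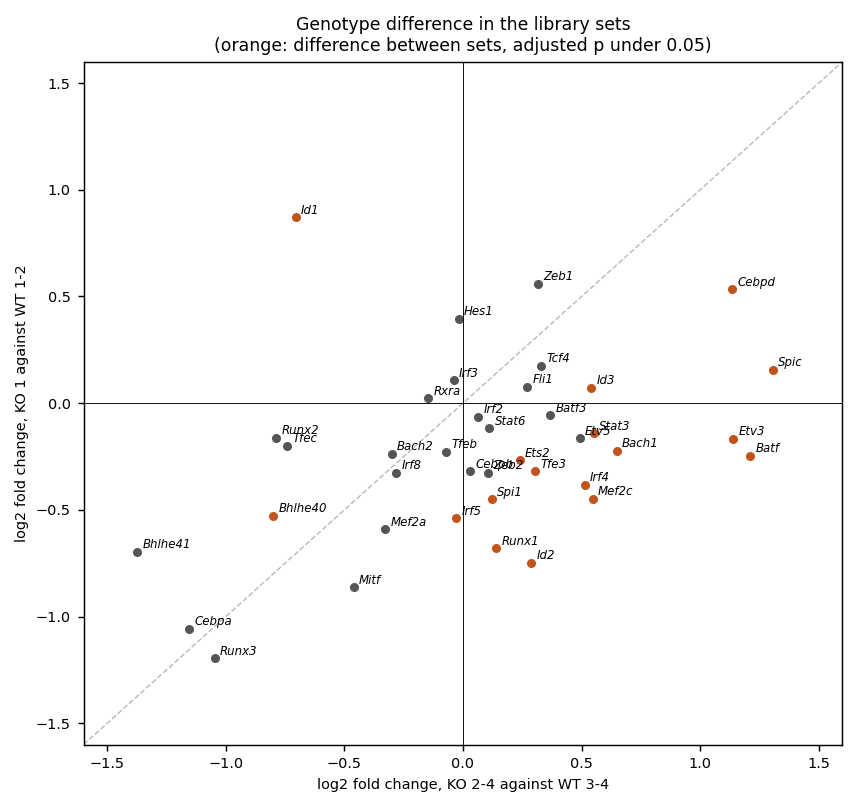
Log2 difference of KO against WT for the 39 factors in KO 2 to 4 against WT 3 and 4 (x axis) and in KO 1 against WT 1 and 2 (y axis); the dashed line marks equal values and orange marks factors whose difference between the sets passed. Cebpa (-1.16 and -1.06) and Runx3 (-1.05 and -1.20) lie near the line, while Etv3 (1.14 and -0.17) and Batf (1.21 and -0.25) lie far below it.

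Among the listed relatives and partners of these factors, 58 were tested and 14 passed with library set, 10 higher and 4 lower in KO, beside 8.59% higher and 7.89% lower among all genes. Notch1, the receptor upstream of Hes1, was at 187 to 198 CPM in WT 1 and 2, 282 CPM in KO 1, 98.6 and 99.5 CPM in WT 3 and 4 and 167 to 191 CPM in KO 2 to 4, and rose by 0.75 (edgeR adjusted p = 8.32e-04). Rarg, a retinoic acid receptor, rose by 0.55 and Batf2, a relative of Batf in interferon responses, by 0.72 (adjusted p = 0.00195 and 0.00325). Vdr, the vitamin D receptor, fell by 0.78 (adjusted p = 0.00879) and was at 49.5 and 52.7 CPM in WT 3 and 4 against 10.4 to 29.4 CPM in the other 6 libraries. Stat2, a transducer of type I interferon, rose by 0.39 (adjusted p = 0.00551). These 5 genes passed in all 13 alternatives. Of the other 9 of the 14, Stat5b (0.25), Irf1 (0.34), Elk1 (0.43), Ets1 (0.45), Irf7 (0.57) and Irf2bp1 (0.35) were higher and Cebpg (-0.46), Irf2bp2 (-0.31) and Nr1h3 (LXRα, -0.50) lower, with adjusted p from 0.0161 (Stat5b) to 0.0484 (Irf2bp1). Each of the 9 lost the call without WT 3, without WT 4 and in other alternatives.

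Of 9 tested Spi1 targets, 3 fell with library set, where 7.89% of all genes did: Fcgr1, the high-affinity IgG receptor, by 0.29 (edgeR adjusted p = 0.0029), Csf2rb, a cytokine receptor chain, by 0.59 (adjusted p = 0.00615) and Tyrobp, a signalling adaptor, by 0.25 (adjusted p = 0.0490, lost in 8 of the 13 alternatives). Csf2rb has a near-identical neighbour, so its value is uncertain. All 9 had a negative log2 difference in KO 1 against WT 1 and 2, where the median over all genes was -0.0002. The summed interstitial macrophage markers were also lower in KO 1 (10494 CPM against 15408 and 16808 CPM). The parallel is partly built in, since Csf1r, Cd68, Fcgr1 and Adgre1 are in both lists. Among 8 tested feedback genes of BMP and TGF-β signalling, 4 fell and none rose with library set (7.89% and 8.59% of all genes). Pmepa1, an inhibitor of TGF-β signalling that TGF-β induces, was at 107, 109, 148 and 141 CPM in WT and 49.0, 60.9, 60.1 and 58.2 CPM in KO. Every KO library was below every WT library, and it fell by 1.14 with genotype only (edgeR adjusted p = 0.0314) and by 1.22 with library set (adjusted p = 3.37e-05). Leaving out any library but KO 1 ended the call with genotype only, and none ended that with library set. Ldlrad4, Skil and Ski, which also restrain Smad signalling, fell by 0.42, 0.53 and 0.21 with library set (adjusted p = 0.00302, 0.0223 and 0.0196). Skil lost the call without WT 3, KO 3 or KO 4 and Ski without any 1 of the other 5 libraries. Smad6, a BMP-induced inhibitor, went as Id1 did: it was at 66.7, 37.2, 5.80 and 7.003 CPM in WT and 91.6, 3.71, 4.33 and 4.84 CPM in KO, with KO 1 highest and KO 2 to 4 lowest.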

How the data were processed

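Polyadenylated RNA of sorted lung macrophages was read in 8 libraries, 4 per genotype. The authors deposited salmon's estimated counts, 1 per gene and library, per the table's own title and values, with 81.8% to 84.8% of the values of a library whole. Per the submitters' processing notes, the build was GRCm38 and DESeq2 1.40.1 was used. Not given in the sources used here are the salmon version, the annotation, the strand setting and any filter. Without strand, reads of exons that overlap on opposite strands cannot be told apart: 15 of the 39 members share such bases, 7 of them with a gene in the table.

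Estimated counts were rounded to whole numbers, filtered with filterByExpr (minimum count 10, minimum total 15), scaled by TMM and tested with the robust quasi-likelihood F-test of edgeR 4.0.16 in R 4.3.3 (limma 3.58.1), with Benjamini-Hochberg adjustment over all genes tested and a threshold of 0.05. The fits had genotype only, genotype with library set, genotype within the 5 libraries that are not lung-rich, and the interaction of genotype and set. DESeq2 1.42.0, other scalings, no filter and left-out libraries were alternatives. Positions and exon lengths are from GENCODE M21. The edgeR fits were tested on simulated data. Replicates of 1 genotype all differed by more than counting noise (median chi-square 1.87 times noise for WT 3 and WT 4, 4.41 for WT 1 and WT 2).

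The members, gene lists and library sets were chosen with earlier results of these data known. The text names every member, gives each library's value for the members that passed or did not overlap and for Spi1, Cebpb, Zeb2, Id1, Id2 and Tfeb, gives the others by ranges, and names up to 6 genes that passed of each partner and target list with library set, in order of adjusted p. Smad6, Smad7, Tcf3, Tcf12, Chil3, Siglecf, Plet1 and Cd209a were named after their values were seen.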

Additional observations from a re-analysis of the deposited data

Results flagged for a closer look

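For 22 of the 39 factors, KO 1 lay farther from KO 2 to 4 than Dixon's 95% critical value allows, where chance gives about 1 in 20 groups. In WT, 0 of 39 groups held such a library. The WT libraries split evenly between the library sets, where a test for a single outlying library finds little, so this 0 does not show that WT was uniform. The share over all genes was not computed. Over the genes tested, the median chi-square of KO 1 against KO 2 to 4 was 48.0 to 55.9 times noise. Among KO 2 to 4 it was 2.06 to 3.07 times noise, and for WT 1 and WT 2 against WT 3 and WT 4 it was 22.8 to 36.3 times noise. The count of 22 can therefore not be read as particular to these factors. KO 1 was the low library for Spi1 (165 CPM), Runx1 (133), Ets2 (544), Etv3 (349), Irf4 (51.9), Irf5 (129), Bhlhe40 (182), Id2 (127), Stat3 (392), Mitf (26.9), Tfeb (25.3), Bach1 (327), Batf (17.7), Batf3 (10.4), Mef2a (299) and Mef2c (122 CPM). It was the high library for Cebpd (141 CPM), Zeb1 (107), Hes1 (43.6), Id1 (28.1), Id3 (100.4) and Tcf4 (208 CPM). KO 1 also had the lowest sum of interstitial macrophage markers (10494 CPM) and the highest of endothelial markers (5858 CPM). Their part in these values was not tested.

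For 17 factors the genotype difference itself differed between the library sets in the edgeR interaction test. The log2 difference in the lung-rich set minus that in the other 5 was -0.51 for Spi1, -0.53 for Cebpd, -0.75 for Runx1, -0.44 for Ets2, -1.24 for Etv3, -0.83 for Irf4, -0.44 for Irf5, -0.97 for Id2, -0.40 for Id3, -0.62 for Stat3, -0.56 for Tfe3, -1.09 for Spic, -0.80 for Bach1, -1.39 for Batf and -0.93 for Mef2c. It was 0.34 for Bhlhe40 and 1.63 for Id1. Each of these values rests on KO 1 as a lone lung-rich KO library, whose spread is assumed to be that of the other groups.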

How the results depend on the processing

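No log2 difference of the 14 factors that passed with library set reversed under the 13 alternatives to that fit, but Zeb1 (0.44) was at -0.05 with genotype only. With genotype only, 0 factors and 38 of all genes passed. All genes called were 81 with library totals only, 463 (3 factors) with DESeq2, 0 with WT 3 and WT 4 summed and 2101 (14 factors) with library set. In the 5 other libraries alone 33 factors and 4856 genes passed. Leaving out 1 library gave 0 to 9 factors and 0 to 860 genes, and the high values came without KO 1 (Fli1, Etv3, Id2, Stat3, Tfe3, Spic, Bach1, Batf and Mef2a). With library set, 9 factors and 809 genes passed with WT 3 and WT 4 summed, and leaving out 1 library gave 8 to 28 factors and 769 to 3993 genes. The lowest counts of genes came without WT 4 (769), WT 3 (795), KO 4 (1143), KO 3 (1214) and KO 2 (1392). Over the 14 factors, the call was kept in 150 comparisons with an alternative and lost in 32. In the 5 other libraries, leaving out 1 gave 26 to 33 factors and 3217 to 5078 genes, and Zeb1 did not pass without WT 3 (adjusted p = 0.204) or KO 4 (0.0699). With the replicate number as a block, 0 factors and 0 genes passed. The labels tie no numbers to a shared mouse or day. Same-numbered libraries deviated together for numbers 1, 3 and 4 (r = 0.87, 0.69 and 0.75) but not 2 (r = -0.79). WT 1 and WT 2 correlated best with KO 1 and WT 3 and WT 4 with KO 2. Numbers 1, 3 and 4 join libraries of the same library set and number 2 does not, so these values cannot show whether numbers are paired. No scaling moved the median of all genes by 0.1 or more. The lowest factor count of 25 limits Id1, and a single lung-rich KO library limits every value of that set.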

Other observations

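A few genes were high in WT 3 and WT 4 alone, chosen after their values were seen. Chil3, a chitinase-like protein of alveolar and alternatively activated macrophages, was at 348 and 347 CPM there and at 15.8 to 30.04 CPM in the other 6 libraries. Plet1, another alveolar macrophage marker, was at 24.5 and 26.6 CPM there against 1.21 to 6.54 CPM. Both were picked for this pattern from the 11 alveolar macrophage markers and do not describe the others. Of those, 1 was higher in each lung-rich library than in each other one. Among the transcription factors, Tfec (19.4 and 18.9 against 5.26 to 11.8 CPM) and Bhlhe41 (7.59 and 8.72 against 2.64 to 4.92 CPM) were among the 11 with the same 2 highest libraries. Smad7, an inhibitor that TGF-β induces, differed by -0.71 among the 5 libraries that are not lung-rich and by -0.02 in the lung-rich set.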
